A study of Homo sapiens with 12 samples.

Results

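Pyruvate dehydrogenase and the enzymes that switch it off and on were read as 8 genes of the 25369 in the deposited count table. They are the kinases PDK1, PDK2, PDK3 and PDK4, the phosphatases PDP1 and PDP2, and PDHA1 and PDHB, which encode the alpha and beta subunits of the E1 component. The genes were chosen by name for their enzymatic role, with earlier results of these data known, and all 8 had enough reads to be tested in every cell line.

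The pyruvate dehydrogenase complex sits in the mitochondrial matrix and converts pyruvate to acetyl-CoA, which links glycolysis to the tricarboxylic acid cycle. Pyruvate dehydrogenase kinases phosphorylate the E1 alpha subunit and thereby inactivate the complex, while the phosphatases remove the phosphate and restore activity. PDK1 is a well known target of hypoxia-inducible factor, and PDK4 is known for its induction by fasting and fatty acids in muscle and liver.

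The study asked how the transcriptional response to low oxygen compares between cancer cell types, and these libraries held poly(A)+ RNA from established lines after 24 h. RKO came from a colon carcinoma, A549 from a lung carcinoma and H460 from another lung carcinoma, and each line was kept in normoxia or in hypoxia at 1% O2, with 2 replicate libraries in each of the 6 groups. RKO and A549 cells were grown in DMEM and H460 cells in RPMI, both with fetal bovine serum, so that line and medium cannot be told apart for H460. No group carried a genetic change made by the study, and each tissue of origin is represented by lines that are each a single tumor isolate.

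The libraries held 27350424 to 41757584 counted reads. The 4 hypoxia reference genes CA9, NDRG1, SLC2A1 and VEGFA were called higher in hypoxia in each line. Of all genes tested, 18.8% (RKO), 2.22% (A549) and 24.6% (H460) were called higher. The VEGFA call in A549 was lost under 5 of 14 alternatives. Among these were scaling by library size alone, limma on log2 RPKM and leaving out normoxia replicate 1. Of 5 colon epithelial markers, CDX2 was the one detected in RKO above a few reads, and CDX1, VIL1 and LGR5 had 0 reads there. Of 4 lung epithelial markers, SFTPB and SFTPC were at or near 0 in both lung lines, and NAPSA, at mean levels of 2.58 and 3.30 scaled RPKM in A549 normoxia and hypoxia, was the one detected in that line. NKX2-1 had 2 and 0 reads in the H460 normoxia libraries and 87 and 98 in the hypoxia libraries. Of 4 epithelial markers, KRT8 and KRT18 were high in A549 and H460, and in RKO normoxia KRT18 was at 115 scaled RPKM and KRT8 at 3.61. CDH1 was near 0 in RKO and H460 and at 14.1 in A549 normoxia. EPCAM was at 2.76, 9.47 and 0.279 in RKO, A549 and H460 normoxia. PTPRC and PECAM1, which mark blood and endothelial cells, had at most 3 reads in any library. Of the other 2 blood and stromal markers, COL1A1 was called higher in RKO and A549 (log2 fold change 2.15 and 2.08) and CD68 in H460 (1.20). COL1A1 was near 0 in RKO, at mean levels of 0.0673 and 0.314 scaled RPKM in normoxia and hypoxia (means of 15.5 and 72.5 reads). It passed the filter of 0.5 CPM in at least 2 libraries there only through the hypoxia libraries, so no weight is placed on that call. CD68 was highest in RKO, at mean levels of 245 and 325 in normoxia and hypoxia. It was at 70.1 and 74.1 in A549 and lowest in H460, at 10.96 and 25.5. The part of blood or stromal cells in the results was not tested. Without hypoxia replicate 1 or without hypoxia replicate 2 of RKO, COL1A1 fell under the filter there and was not tested. With limma on log2 RPKM at a pseudocount of 1 COL1A1 was tested in RKO but not called. Its call in A549 was lost under 6 of 14 alternatives. Among these were scaling by library size alone, DESeq2, limma on log2 RPKM and leaving out normoxia replicate 1.

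Levels are given as scaled RPKM, that is, reads per kilobase of exon and sequencing depth after scaling by trimmed mean of M values (TMM). Genes of different length can then be set side by side, as far as the deposited exon length holds for the transcripts made. Differences are given as log2 fold changes of hypoxia over normoxia with their standard error (SE). A call required a Benjamini-Hochberg adjusted p under 0.1 in the edgeR quasi-likelihood test and, in addition, a change of more than 1.5-fold in either direction. In a bulk library, fewer cells that express a gene and less RNA per cell cannot be told apart.

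Sequence upstream of the RefSeq starts is shown for 4 members, because it places the ACGTG or GCGTG core that hypoxia-inducible factors recognise. RefSeq starts on GRCh38.p14 were matched for 7 of the 8 genes, the exception being PDP1. The 250 bases before each start were searched on both strands, and a palindromic CACGTG counts as a pair of overlapping matches. Capitals mark the matches and their complement, and each line gives 30 bases, 5′ to 3′ on the strand of the gene.
PDK1, chr2:172556060-172556089, plus strand, bases 30 to 1 before the second start: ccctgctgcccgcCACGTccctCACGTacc
PDK3, chrX:24465171-24465200, plus strand, bases 115 to 86 before the start: ggcgcgcgcggccGCGTGcccctcgcgctc
PDK3, chrX:24465212-24465241, plus strand, bases 74 to 45 before the start: tcgcgcgccgcgtACGTGcagcaaccgact
PDK2, chr17:50095210-50095239, plus strand, bases 141 to 112 before the second start: cccgggggaagcCACGTGccggggcggaag
PDP2, chr16:66880295-66880324, plus strand, bases 220 to 191 before the start: gcCACGTagctggcgatctcaggCACGTGa

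PDK1 had 2 matches before its second start and 0 before its first, PDK3 had 2, and PDK4 had 0. PDK2 had 0, 3 and 0 matches before its 3 starts, PDP2 had 3, PDHA1 had 3 and PDHB had 6. The core is common, since 43.2% of 35116 such windows over 27305 genes held at least 1 match, 19.4% at least 2 and 7.76% at least 3. G and C made up 79.6% of the PDK1 window at the second start and 73.6% of the PDK3 window, against a median of 58% over all windows. The matches describe letters only. The 2 genes called higher in every line, PDK1 and PDK3, held matches, but so did PDHA1 and PDHB, which were called in no line.

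PDK1 and PDK3 rose in hypoxia in all 3 lines, whereas PDK2, PDK4, PDP1 and PDP2 each had a call in some lines only. In RKO, 3 of the 8 members were called higher and 0 lower, beside 33.9% of all 12817 genes tested (18.8% higher and 15.1% lower). In A549, 2 were called higher and 1 lower, beside 2.67% of 14251 genes (2.22% higher and 0.456% lower). Without hypoxia replicate 1 of A549, 13% of all genes (1835) and 3 members were called. In H460, 5 were called higher and 1 lower, beside 51.9% of 14080 genes (24.6% higher and 27.3% lower), so that a call in H460 was common among all genes. Hypoxia and normoxia libraries did not overlap for 7, 4 and 8 of the members in RKO, A549 and H460, beside 70.5%, 49.9% and 86.4% of all genes tested. The 8 members had a median log2 fold change of 0.37 (RKO), 0.17 (A549) and 1.25 (H460), beside 0.01, -0.01 and -0.04 over all genes tested. The hypoxia effect itself differed for 3 members between A549 and RKO (14.6% of 15595 genes in the joint fit), for 4 between H460 and RKO (37.6%) and for 4 between H460 and A549 (36%). These 3 comparisons share libraries with one another.

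**Figure D1:**
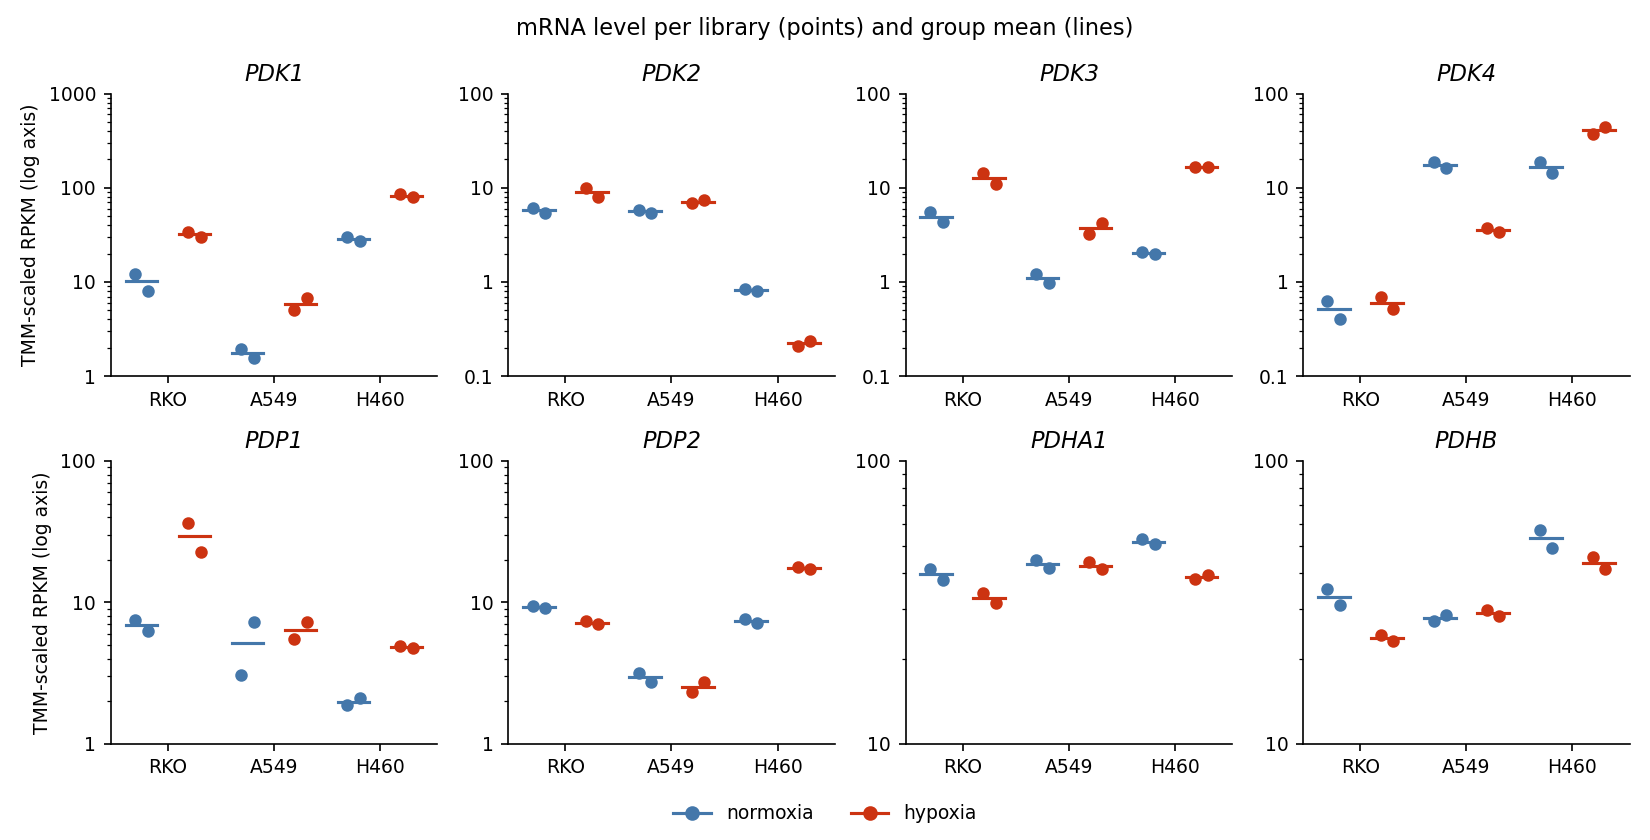
Level of each gene in scaled RPKM on a log axis, with 1 point per library and a line at each group mean, for normoxia (blue) and hypoxia (red) in the 3 lines. PDK1 and PDK3 were higher in both hypoxia libraries than in both normoxia libraries of every line, PDK4 was near 0.5 scaled RPKM in RKO and fell in A549 while it rose in H460, and PDHA1 and PDHB stayed within a narrow range.

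PDK1, located on chromosome 2 (173420101 to 173490351 on GRCh37, plus strand), encodes the kinase most often tied to the hypoxic shift toward glycolysis. In RKO its level was 12.2 and 8.02 scaled RPKM in the normoxia libraries and 33.8 and 30.2 in the hypoxia libraries. In A549 the levels were 1.95 and 1.55 in normoxia against 5.00 and 6.78 in hypoxia. In H460 they were 29.9 and 27.1 against 84.9 and 80.0. The groups did not overlap in any line, although A549 in hypoxia stayed under RKO in normoxia. The log2 fold changes were 1.60 ± 0.20 (SE) in RKO, 1.73 ± 0.24 in A549 and 1.52 ± 0.09 in H460, with edgeR adjusted p of 0.000314, 0.0114 and 5.91e-08. The effects differed between lines by 0.08 ± 0.28 (A549 minus RKO), -0.13 ± 0.27 (H460 minus RKO) and -0.21 ± 0.28 (H460 minus A549), none of which passed the edgeR interaction test (adjusted p = 0.918, 0.783 and 0.608). An adjusted p of this size does not show that the effects were equal.

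PDK3, on chromosome X (24483344 to 24568583, plus strand), is a kinase that resists inhibition by pyruvate and has a narrow tissue range. Its level in RKO was 5.48 and 4.34 scaled RPKM in normoxia and 14.2 and 10.9 in hypoxia. A549 went from 1.22 and 0.965 to 3.23 and 4.18. H460 went from 2.10 and 1.97 to 16.4 and 16.5. Again the groups did not overlap, and H460 changed places with RKO, from the lower level in normoxia to the higher in hypoxia. The log2 fold changes were 1.29 ± 0.18 in RKO, 1.74 ± 0.23 in A549 and 3.0 ± 0.09 in H460, with edgeR adjusted p of 0.000528, 0.00795 and 7.96e-10. PDK3 thus rose 8.02-fold in H460, against 2.45-fold in RKO and 3.35-fold in A549. The difference of the effects was 1.67 ± 0.25 between H460 and RKO and 1.26 ± 0.26 between H460 and A549, and both passed the edgeR interaction test (adjusted p = 0.000368 and 0.00296). Between A549 and RKO it was 0.41 ± 0.25 and did not pass (adjusted p = 0.347).

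PDK4, on chromosome 7 (95212809 to 95225925, minus strand), encodes the kinase that responds to nutrient state through nuclear receptors and FOXO factors. RKO held little of it, at 0.625 and 0.407 scaled RPKM in normoxia and 0.693 and 0.511 in hypoxia, and these groups overlapped. A549 fell from 18.7 and 16.3 to 3.72 and 3.39. H460 rose from 18.7 and 14.4 to 37.3 and 44.0. Both lung lines therefore started from about the same level and moved in opposite directions. The log2 fold changes were -2.31 ± 0.20 in A549 and 1.28 ± 0.13 in H460, with edgeR adjusted p of 0.00441 and 2.52e-06. In RKO the value was 0.16 ± 0.35 (adjusted p = 0.748) on a mean of 73.5 and 87.5 reads per library, the lowest depth for PDK4 in any line. The effects in H460 and A549 differed by 3.59 ± 0.28 (edgeR interaction, adjusted p = 7.04e-06). A549 and RKO differed by -2.53 ± 0.31, and H460 and RKO by 1.07 ± 0.31 (adjusted p = 0.000528 and 0.0187). The last of these rested on 1 library, since without RKO normoxia replicate 1 it was 0.71 with an edgeR adjusted p of 0.149.

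PDK2, on chromosome 17 (48172101 to 48188733, plus strand), is the kinase with the widest tissue expression. RKO had levels of 6.07 and 5.40 scaled RPKM in normoxia and 10.0 and 7.88 in hypoxia. A549 had 5.75 and 5.44 in normoxia and 6.81 and 7.44 in hypoxia. H460 held 0.847 and 0.795 in normoxia and 0.212 and 0.236 in hypoxia, the lowest levels of any kinase in that line. No groups overlapped, but PDK2 was called in H460 alone, where it fell by 1.88 ± 0.27 on the log2 scale (edgeR adjusted p = 6.78e-05) on a mean of 86.5 reads in normoxia and 20.0 in hypoxia. In RKO the log2 fold change of 0.58 ± 0.19 had an edgeR adjusted p of 0.0309 but lay just under the fold limit, at 1.49-fold. It stayed without a call there under 8 of 14 alternatives. Among the others, it was called higher in the joint fit of all libraries (0.64, edgeR adjusted p = 0.0102) and with library size alone (0.66). In A549 the value was 0.33 ± 0.20 (edgeR adjusted p = 0.445). The H460 effect differed from that in RKO by -2.51 ± 0.30 and from that in A549 by -2.21 ± 0.30 (edgeR interaction, adjusted p = 7.81e-05 and 0.000243).

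PDP1, on chromosome 8 (94929083 to 94938296, plus strand), encodes the calcium-stimulated catalytic subunit of the phosphatase. Its level in RKO was 7.53 and 6.32 scaled RPKM in normoxia and 36.3 and 22.5 in hypoxia. A549 had 3.07 and 7.20 in normoxia and 5.54 and 7.29 in hypoxia. H460 had 1.86 and 2.10 against 4.91 and 4.76. The groups were apart in RKO and H460, while in A549 the normoxia libraries spanned most of the range of the hypoxia libraries. PDP1 rose by 2.02 ± 0.22 on the log2 scale in RKO, the largest change of any member in that line, and by 1.27 ± 0.13 in H460 (edgeR adjusted p = 0.000165 and 2.70e-06). The A549 value of 0.31 ± 0.35 had an adjusted p of 0.706. It turned on the normoxia libraries, being 1.04 (edgeR adjusted p = 0.0893) without replicate 2 and -0.18 (adjusted p = 0.838) without replicate 1. The effect in A549 was lower than in RKO by 1.77 ± 0.43, a log2 difference of -1.77 that passed the edgeR interaction test (adjusted p = 0.0251). Without RKO hypoxia replicate 1 this difference was -1.38 with an adjusted p of 0.1003. H460 differed from RKO by -0.80 ± 0.44 and from A549 by 0.96 ± 0.44, neither called (adjusted p = 0.193 and 0.123). These stayed without a call under 10 and 11 of 16 alternatives. Both were called without a filter on low counts (-0.81 and 0.97, edgeR adjusted p = 0.0111 and 0.00200) and with a replicate block. The difference from RKO was also called with library size alone and with limma, and that from A549 with DESeq2. Leaving out 1 library in turn gave -1.13 to -0.43 and 0.22 to 1.45.

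PDP2, on chromosome 16 (66914383 to 66925002, plus strand), encodes the second catalytic phosphatase, which is known for its response to insulin. RKO had levels of 9.42 and 9.17 scaled RPKM in normoxia and 7.38 and 7.0 in hypoxia. A549 had 3.17 and 2.71 against 2.33 and 2.73, and these groups overlapped. H460 had 7.61 and 7.10 against 17.9 and 17.1. The phosphatase was lower in both RKO hypoxia libraries and higher in both of H460. It rose by 1.23 ± 0.09 on the log2 scale in H460 (edgeR adjusted p = 1.73e-07), while the values of -0.43 ± 0.15 in RKO and -0.23 ± 0.21 in A549 were not called (adjusted p = 0.0419, under the fold limit, and 0.625). The H460 effect was higher than that in RKO by 1.62 ± 0.19 and than that in A549 by 1.47 ± 0.20 (edgeR interaction, adjusted p = 8.15e-05 and 0.000228).

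**Figure D2:**
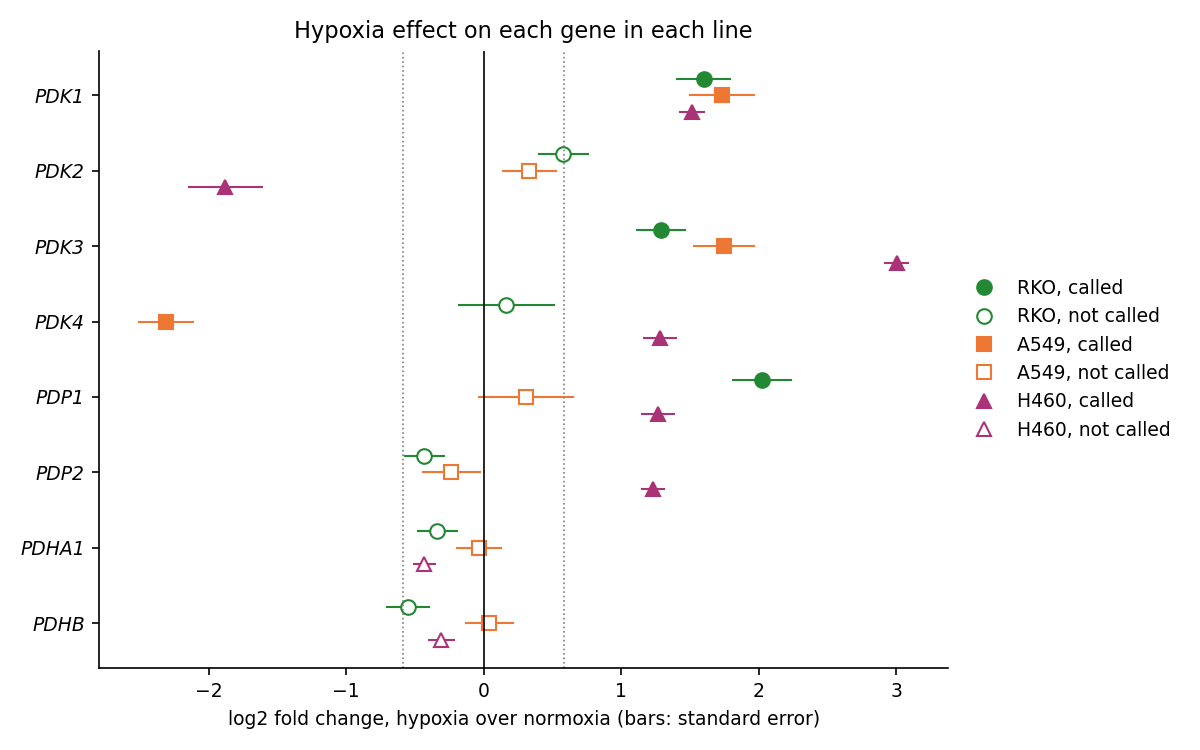
Log2 fold change of hypoxia over normoxia for each gene in RKO (circles), A549 (squares) and H460 (triangles), with bars of 1 SE, filled symbols for called genes and dotted lines at the 1.5-fold limit. The symbols for PDK1 lie together between 1.52 and 1.73, whereas those for PDK4 spread from -2.31 in A549 to 1.28 in H460 and those for PDK2 from -1.88 in H460 to 0.58 in RKO.

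PDHA1, on chromosome X (19362011 to 19379825, plus strand), encodes the subunit that carries the regulated phosphorylation sites, and PDHB, on chromosome 3 (58413357 to 58419579, minus strand), encodes its partner in the E1 tetramer. PDHA1 levels were 41.6 and 37.8 scaled RPKM in RKO normoxia and 34.1 and 31.6 in hypoxia, 44.8 and 41.8 against 43.9 and 41.4 in A549, and 52.9 and 50.7 against 38.2 and 39.5 in H460. PDHB levels were 35.2 and 31.0 against 24.2 and 23.0 in RKO, 27.3 and 28.5 against 29.7 and 28.3 in A549, and 57.0 and 49.4 against 45.6 and 41.4 in H460. Both subunits were lower in both hypoxia libraries of RKO and of H460, and overlapped between conditions in A549. No change reached 1.5-fold, so neither subunit was called in any line. The log2 fold changes of PDHA1 were -0.34 ± 0.15 in RKO, -0.04 ± 0.17 in A549 and -0.43 ± 0.08 in H460, with edgeR adjusted p of 0.0954, 0.933 and 0.000668. For PDHB they were -0.55 ± 0.16, 0.04 ± 0.18 and -0.31 ± 0.10, with adjusted p of 0.0197, 0.931 and 0.0138. Leaving out 1 library in turn gave -0.64 to -0.45 for PDHB in RKO, on both sides of the 1.5-fold limit. Scaling mattered in H460: with library size alone in place of TMM the median of all genes there was -0.39 rather than -0.04, and PDHA1 (-0.78) and PDHB (-0.66) were then called lower. For PDHB the effect in A549 was above that in RKO by 0.54 ± 0.19 (edgeR interaction, adjusted p = 0.0958), a call lost under 11 of 16 alternatives, among them 7 of the 8 fits that left out 1 library. The other differences between lines for the E1 subunits were not called, but that of PDHA1 between H460 and A549 (-0.39 ± 0.17, adjusted p = 0.107) was called by DESeq2 (adjusted p = 0.0697) and with library size alone (-0.66). With library size alone the differences of PDHA1 between H460 and RKO (-0.53) and of PDHB between H460 and A549 (-0.61) were called too.

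The makeup of the kinase mRNA followed from these values and is given as a description without a test. It rests on the deposited exon lengths, which were 5825 (PDK1), 3392 (PDK2), 13136 (PDK3) and 3700 (PDK4) bases. By reads PDK3 had the highest mean of the 4 kinases in A549 hypoxia (1831, against 1287 for PDK1 and 915.5 for PDK2). Whether transcripts of these lengths were made was not tested. The 4 kinases summed to 24.4 and 18.2 scaled RPKM in RKO normoxia and to 58.7 and 49.5 in hypoxia. In H460 the sum went from 51.5 and 44.3 to 139 and 141. In A549 it went from 27.6 and 24.2 to 18.8 and 21.8, so that A549 was the line in which the summed level was lower in hypoxia while PDK1 and PDK3 rose. PDK4 made up 67.7% and 67.1% of the summed kinase level in A549 normoxia and 19.8% and 15.6% in hypoxia. PDK1 went from 7.08% and 6.42% to 26.7% and 31.1% there, PDK2 from 20.8% and 22.5% to 36.3% and 34.1%, and no single kinase held a majority in A549 hypoxia. In H460 the share of PDK1 was 58.0% and 61.2% in normoxia and 61.2% and 56.8% in hypoxia, while PDK3 went from 4.07% and 4.44% to 11.8% and 11.7%. In RKO the share of PDK1 was 50.1% and 44.2% in normoxia and 57.5% and 61.1% in hypoxia.

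**Figure D3:**
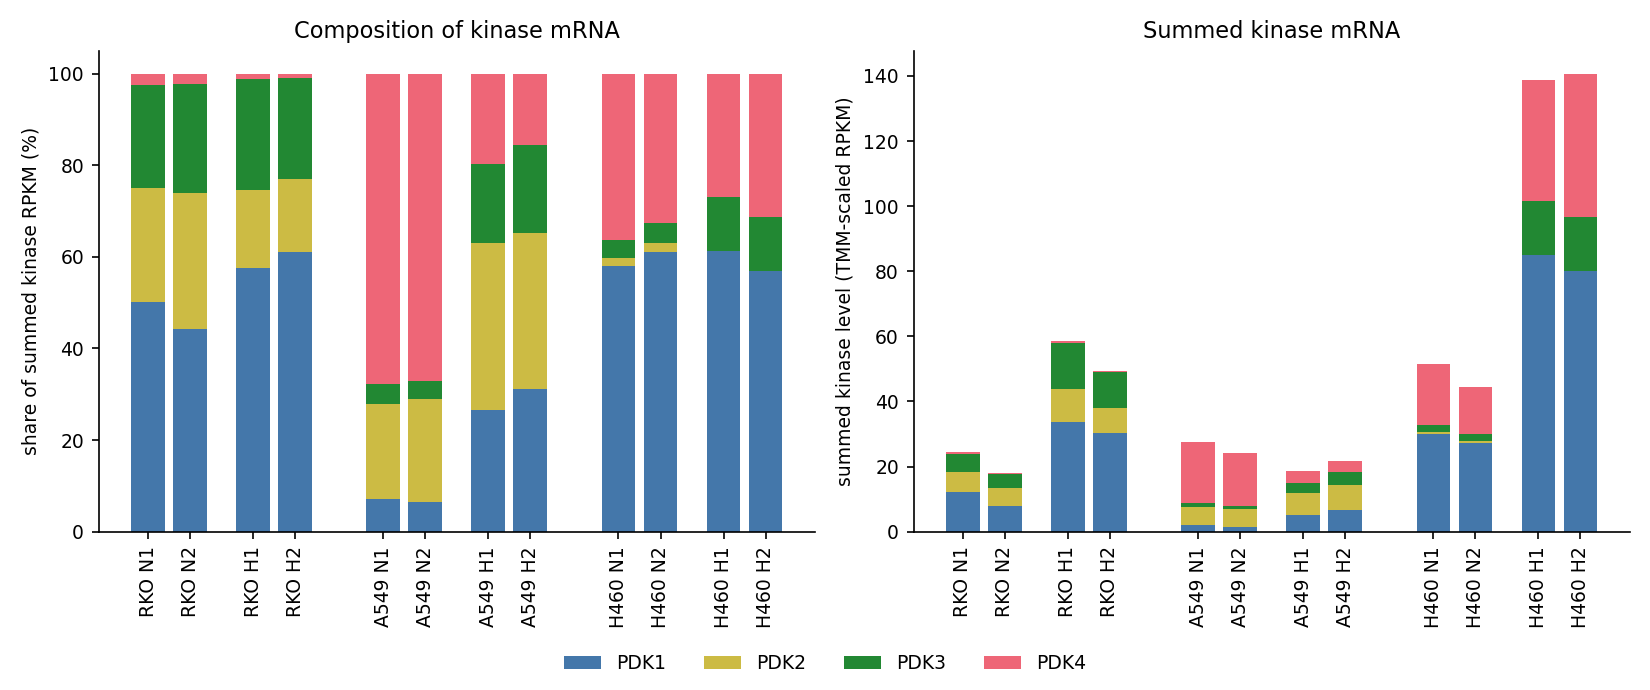
Share of each kinase in the summed kinase level (left, in percent) and the summed level itself (right, in scaled RPKM), with 1 bar per library, where N1 and N2 are the normoxia and H1 and H2 the hypoxia replicates. PDK4 fills 67.7% and 67.1% of the A549 normoxia bars and 19.8% and 15.6% of the hypoxia bars, and the summed level reaches 139 and 141 in H460 hypoxia.

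Set against its substrate, the summed kinase level per PDHA1 was 0.586 and 0.480 in RKO normoxia and 1.72 and 1.57 in hypoxia. In H460 it went from 0.973 and 0.873 to 3.63 and 3.56, and in A549 from 0.617 and 0.579 to 0.428 and 0.526. The kinase level per phosphatase level (PDP1 plus PDP2) went from 1.44 and 1.17 to 1.34 and 1.68 in RKO, from 4.43 and 2.44 to 2.38 and 2.18 in A549, and from 5.44 and 4.81 to 6.08 and 6.45 in H460. Its normoxia and hypoxia libraries overlapped in RKO, where the summed kinase level and PDP1 were both higher in hypoxia. The share of PDP1 in the summed phosphatase level there went from 44.4% and 40.8% to 83.1% and 76.3%, so that the leading phosphatase changed from PDP2 to PDP1. These are ratios of mRNA levels and measure neither protein nor phosphorylation.

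The lines also differed before any treatment, and these baselines were compared in a joint edgeR fit of all 12 libraries. In normoxia 4 of the 8 members were called between A549 and RKO (60.2% of 15595 genes), 6 between H460 and RKO (61.9%) and 6 between H460 and A549 (52.1%). PDK4 was higher than in RKO by 5.08 ± 0.24 on the log2 scale in A549 and by 5.01 ± 0.24 in H460 (edgeR adjusted p = 1.17e-10 and 1.38e-10). PDK1 in H460 was above A549 by 4.02 ± 0.22 and above RKO by 1.49 ± 0.20 (adjusted p = 1.56e-09 and 1.10e-05), and in A549 it was below RKO, at -2.53 ± 0.21 (adjusted p = 8.31e-08). PDK2 in H460 was below RKO (-2.80 ± 0.19) and below A549 (-2.77 ± 0.19, adjusted p = 1.02e-08 and 2.03e-08), whereas A549 and RKO differed by -0.03 ± 0.17 (adjusted p = 0.871). PDHA1 was called in none of the 3 pairs.

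Ordered by mean level, PDK1 ran from H460 hypoxia (82.4 ± 3.5 scaled RPKM, SD, n = 2) through RKO hypoxia (32.0 ± 2.5), H460 normoxia (28.5 ± 2.0), RKO normoxia (10.1 ± 3.0) and A549 hypoxia (5.89 ± 1.25) to A549 normoxia (1.75 ± 0.28). RKO hypoxia and H460 normoxia were the only neighbours in this order that did not differ by edgeR (adjusted p = 0.451). For PDK3 every pair of neighbours differed (adjusted p of 0.0592 or less), from H460 hypoxia (16.5 ± 0.1) to A549 normoxia (1.09 ± 0.18). PDK4 ran from H460 hypoxia (40.6 ± 4.8) to RKO normoxia (0.516 ± 0.154), and A549 and H460 normoxia (adjusted p = 0.743) and the 2 RKO groups (adjusted p = 0.510) did not differ. The 4 PDK2 groups of RKO and A549 formed a run without a difference between neighbours (adjusted p of 0.102 or more), and both H460 groups lay below it. For PDP1, RKO hypoxia (29.4 ± 9.7) stood above a run of RKO normoxia, A549 hypoxia, A549 normoxia and H460 hypoxia in which no neighbours differed (adjusted p of 0.570 or more), and H460 normoxia (1.98 ± 0.17) was lowest. For PDP2, H460 hypoxia (17.5 ± 0.6) was highest and the A549 groups (2.94 ± 0.32 and 2.53 ± 0.28) were lowest. Taken as the ratio of the highest to the lowest group mean, the E1 subunits spanned the narrowest range. PDHA1 ran from 51.8 ± 1.6 (H460 normoxia) to 32.8 ± 1.8 (RKO hypoxia). PDHB ran from 53.2 ± 5.4 (H460 normoxia) to 23.6 ± 0.9 (RKO hypoxia).

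Of DLAT (the E2 core), PDHX (the E3-binding protein), DLD (E3) and PDPR (a regulatory subunit of the phosphatase), 1 was called lower in RKO, 0 were called in A549, and 1 was called higher and 1 lower in H460, beside 33.9%, 2.67% and 51.9% of all genes called in these lines. DLAT fell in RKO (-1.02 ± 0.17) and H460 (-1.27 ± 0.10), with levels of 15.4 and 15.1 against 6.92 and 8.71 scaled RPKM in RKO and of 18.2 and 17.6 against 7.08 and 7.91 in H460. PDHX rose in H460 by 0.63 ± 0.09, a call that was lost with library size alone (0.26) and without normoxia replicate 1. Of 6 genes for pyruvate entry and for lipoate and thiamine supply, RKO had 1 called lower among the 5 tested there, while all 6 were tested in the lung lines, with 0 called in A549 and 2 called lower in H460. LIAS, which makes the lipoate carried by E2, fell in RKO (-1.01 ± 0.20) and H460 (-1.03 ± 0.12). MPC1, a subunit of the mitochondrial pyruvate carrier, fell in H460 (-0.89 ± 0.13).

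Among 4 genes for other fates of pyruvate, 1 was called higher and 1 lower in RKO, and 2 were called higher in A549 and 2 in H460. Of all genes tested, 18.8% in RKO, 2.22% in A549 and 24.6% in H460 were called higher, and 15.1%, 0.456% and 27.3% lower. LDHA, the lactate dehydrogenase subunit that favours lactate formation, rose in all lines, with values of 0.63 ± 0.19 (RKO), 1.38 ± 0.19 (A549) and 1.18 ± 0.10 (H460). The RKO call was lost without normoxia replicate 2. LDHB fell in RKO (-0.79 ± 0.17). PC, which carboxylates pyruvate to oxaloacetate, rose in A549 (1.15 ± 0.28), a call that was lost under 7 of 14 alternatives. Among these were library size alone, limma on log2 RPKM, and leaving out normoxia replicate 1, normoxia replicate 2 or hypoxia replicate 2. GPT2, the mitochondrial alanine transaminase, rose in H460 (0.78 ± 0.09), a call lost with library size alone. Of 7 genes of the sister branched-chain and oxoglutarate dehydrogenases, 1 was called higher in RKO, 0 in A549 and 4 in H460. These counts stand beside 18.8%, 2.22% and 24.6% of all genes called higher. BCKDHA, the branched-chain counterpart of PDHA1, rose in RKO (0.80 ± 0.22) and H460 (2.19 ± 0.12), and its kinase BCKDK rose in H460 (1.69 ± 0.10). The RKO call of BCKDHA was lost without hypoxia replicate 1.

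**Figure D4:**
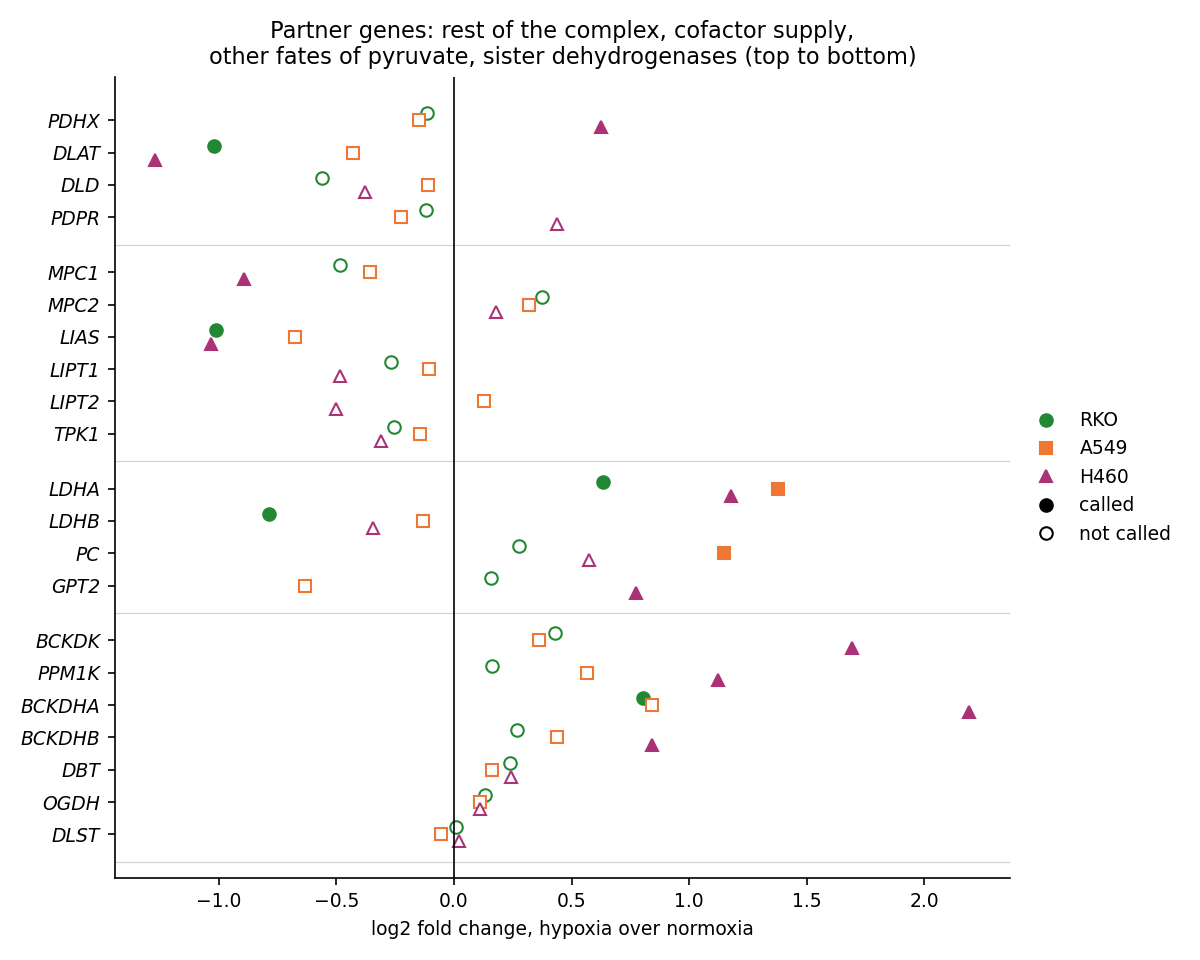
Log2 fold change of hypoxia over normoxia for the other genes of the complex, the cofactor and pyruvate supply genes, other fates of pyruvate and the sister dehydrogenases, from top to bottom, in RKO (circles), A549 (squares) and H460 (triangles), filled where called. DLAT and LIAS lie near -1 in RKO and H460, BCKDHA reaches 2.19 in H460, and LDHA is filled in all 3 lines.

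Because PDK4 moved in opposite directions in A549 and H460, factors known to act on it were read from a list of 8. In RKO 5 were tested, with 2 called higher and 1 lower. In A549 all 8 were tested and 1 was called lower, and in H460 4 of 8 were called higher. Of all genes tested, 18.8% were called higher and 15.1% lower in RKO, 0.456% lower in A549 and 24.6% higher in H460. PPARGC1A, a coactivator of nuclear receptors, had levels of 0.667 and 0.897 scaled RPKM in A549 normoxia and 0.345 and 0.267 in hypoxia, against 3.23 and 3.08 and then 9.28 and 8.12 in H460. PPARGC1A fell in A549 (-1.36 ± 0.33, edgeR adjusted p = 0.0953) and rose in H460 (1.45 ± 0.10), with 0 to 5 reads in each RKO library. The A549 call was lost under 6 of 14 alternatives. Among these were library size alone, limma on log2 RPKM, and leaving out normoxia replicate 2 or hypoxia replicate 2. The effects in H460 and A549 differed by 2.81 ± 0.37 (edgeR interaction, adjusted p = 0.000221). PPARA rose in RKO (0.64 ± 0.18) and H460 (1.90 ± 0.13), FOXO3 rose in the same lines (0.80 ± 0.23 and 1.93 ± 0.11), and NR3C1, the glucocorticoid receptor, rose in H460 (0.75 ± 0.09). The NR3C1 call was lost with library size alone. Both RKO calls, of PPARA and FOXO3, were lost without hypoxia replicate 1, and that of PPARA also without normoxia replicate 2. Whether any of these factors had a part in the PDK4 values was not tested.

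Other genes that peroxisome proliferator-activated receptors are known to induce were read from a list of 7, of which 6 were tested in each line. They had 3 called higher in RKO, 2 higher in A549 and 3 higher and 1 lower in H460. Of all genes tested, 18.8%, 2.22% and 24.6% were called higher in these lines, and 27.3% were called lower in H460. ANGPTL4, which inhibits lipoprotein lipase, rose in each line, by 1.22 ± 0.28 (RKO), 3.48 ± 0.49 (A549) and 3.88 ± 0.12 (H460). PLIN2, which coats lipid droplets, rose by 1.39 ± 0.24, 1.68 ± 0.21 and 3.97 ± 0.18. ANGPTL4 and PLIN2 are also known to rise in hypoxia. ACADVL rose in RKO (0.89) and in H460 (0.85), where the call was lost with library size alone. ACADM fell in H460 (-0.87). CPT1A was called in no line, with means of 24.9 and 19.1 scaled RPKM in A549 normoxia and hypoxia and 13.9 and 9.70 in H460. Whether these receptors had a part in the PDK4 values was not tested.

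The genes with the profile most like each kinase were found over the 12 libraries, as the smallest root mean square difference of centred log2 CPM among 12416 genes. For PDK1 they were STARD4 (0.379), SLCO4A1 (0.567) and BCL6 (0.604), beside a median of 1.96 over all genes compared. For PDK3 they were TBC1D8B (0.321), AK4 (0.377) and C2orf72 (0.418), beside a median of 1.53. For PDK4 the nearest were PIR (0.773), CPS1 (0.782) and ZNF549 (0.851), beside a median of 2.54. PIR had a mean of 16.8 scaled RPKM in A549 normoxia and 13 in hypoxia, and 29.1 and 28.3 in H460. PIR thus followed PDK4 between lines more than between oxygen conditions. CPS1 was at 62.0 in A549 normoxia and 25.6 in hypoxia, and at 194 and 249 in H460. Its means thus moved in the same directions as PDK4 in both lung lines. ZNF549 was at 0.785 and 0.806 in A549 and at 2.33 and 2.27 in H460.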

How the data were processed

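Per the labels and the study's methods, the authors sequenced strand-specific poly(A)+ libraries, aligned reads with TopHat2 2.0.13 to GRCh37/hg19 and counted exon reads with HTSeq 0.6.1. The authors deposited these counts for each gene and library, together with RPKM values, which equal counts over exon length and over the library total, rescaled. Reads with low mapping quality were removed by the authors before counting, so that reads shared with close copies were lost there.

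With R 4.3.3, the quasi-likelihood F test of edgeR 4.0.16 was run on the 4 libraries of a line after TMM scaling, for genes over 0.5 CPM in at least 2 libraries. Calls needed a Benjamini-Hochberg adjusted p over all genes tested under 0.1 and a fold change over 1.5, the thresholds of the study, and interactions the adjusted p alone. Interactions, baselines and neighbours in the order of levels came from 1 edgeR fit of 12 libraries in 6 groups. SE is the log2 fold change over the square root of F, and scaled RPKM is the deposited count per exon kilobase and TMM-scaled library total, in the units of RPKM. The study calls the replicates independent biological duplicates. The depth of 27350424 to 41757584 reads gave a median SE of 0.184 in RKO, 0.223 in A549 and 0.114 in H460.

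Named genes are the 8 members, the genes of the lists, and the 3 genes of nearest profile to PDK1, PDK3 and PDK4 with a mean of 100 counts or more. Members and lists were chosen with earlier results of these data known. A listed gene is not reported here. Alternatives were RLE factors, library size alone, no filter, DESeq2 1.42.0, a replicate block, limma 3.58.1 on log2 of deposited RPKM plus 0.1 or 1, a joint fit, other thresholds and leaving out each library. Promoter sequence is from RefSeq on GRCh38.p14, and coordinates of genes are deposited GRCh37 positions counted from 1.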

Additional observations from a re-analysis of the deposited data

Results flagged for a closer look

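Hypoxia effects that differed between lines in the joint edgeR fit are listed here as log2 differences with SE and the adjusted p over 15595 genes, and no explanation was tested for any of them. Between A549 and RKO, with the A549 effect first, PDK4 differed by -2.53 ± 0.31 (edgeR adjusted p = 0.000528), PDP1 by -1.77 ± 0.43 (0.0251) and PDHB by 0.54 ± 0.19 (0.0958). The PDP1 call was lost without RKO hypoxia replicate 1 (-1.38, adjusted p = 0.1003), and the PDHB call under 11 of 16 alternatives. Between H460 and RKO, PDK2 differed by -2.51 ± 0.30 (edgeR adjusted p = 7.81e-05), PDK3 by 1.67 ± 0.25 (0.000368), PDK4 by 1.07 ± 0.31 (0.0187) and PDP2 by 1.62 ± 0.19 (8.15e-05). The PDK4 call was lost without RKO normoxia replicate 1 (0.71, adjusted p = 0.149). Between H460 and A549, PDK2 differed by -2.21 ± 0.30 (edgeR adjusted p = 0.000243), PDK3 by 1.26 ± 0.26 (0.00296), PDK4 by 3.59 ± 0.28 (7.04e-06) and PDP2 by 1.47 ± 0.20 (0.000228). PDK4 was the member called in all 3 pairs, with effects of 0.16 in RKO, -2.31 in A549 and 1.28 in H460. H460 was the line grown in another medium, so line and medium cannot be told apart in the last 2 sets.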

How the results depend on the processing

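Over 72 values (8 members in 9 contrasts) and 1104 alternatives, 1020 kept direction and side of the threshold, 15 lost the call, 42 gained one and 27 turned sign, all 27 among values that were not called. No called hypoxia effect within a line was lost under any alternative. Without a minimum fold change 7 members were called in RKO (4 higher, 3 lower) in place of 3. Leaving out 1 library in turn gave 3 to 4 calls in RKO, 3 to 4 in A549 and 6 to 6 in H460, and for the differences of effects 1 to 3 (A549 and RKO, with 1 when RKO hypoxia replicate 1 was left out), 3 to 5 (H460 and RKO) and 4 to 5 (H460 and A549). For normoxia it gave 4 to 5, 5 to 6 and 6 to 6. The PDHB difference between A549 and RKO (0.54) was lost under 11 of 16 alternatives. Signs turned under library size alone for PDHB in A549 (-0.050), the PDK1 difference A549 minus RKO (-0.049) and the PDHB difference H460 minus RKO (-0.19). With limma they turned for the same values at a pseudocount of 0.1 (-0.050, -0.12 and -0.19) and of 1 (-0.049, -0.38 and -0.19), and at 1 also for the PDK3 difference A549 minus RKO (-0.12). Leaving out 1 library in turn gave ranges that crossed 0 for PDK4 in RKO (-0.12 to 0.50), for PDP1 (-0.18 to 1.04), PDHA1 (-0.095 to 0.016) and PDHB (-0.0093 to 0.086) in A549, and for the PDK1 differences A549 minus RKO (-0.26 to 0.36), H460 minus RKO (-0.48 to 0.13) and H460 minus A549 (-0.42 to 0.021). In normoxia the ranges of PDK2 (-0.11 to 0.064) and PDP1 (-1.17 to 0.059) for A549 minus RKO and of PDK4 for H460 minus A549 (-0.27 to 0.10) crossed 0. The cause was not tested.

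Same-numbered replicates were not stated to share a day, and their deviations correlated at 0.34 in RKO, 0.34 in A549 and 0.11 in H460 with 2 pairs in each line. A replicate block left 3, 3 and 6 members called in RKO, A549 and H460, and it added the differences of PDP1 (H460 minus RKO -0.77, H460 minus A549 0.86) and PDHA1 (H460 minus A549 -0.39). Over all genes the block called 1912 in A549 in place of 381, and DESeq2 871.

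Of 51 calls for listed genes other than the members, 35 held under every alternative and 16 were lost under at least 1, with 0 changes of sign. A gene that fell under the filter and was not tested counts as lost here. This was so for COL1A1 in RKO and NKX2-1 in H460 when 1 hypoxia library was left out. A lone library left in a group was assumed to vary like the other groups. With 2 replicates and few reads, PDK2 in H460 hypoxia and PDK4 in RKO had the largest SE of the kinases in their line (0.27 and 0.35).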
